A study of Mus musculus with 23 samples.

Results

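NR5A2-bound regions near genes of the oocyte and of the maternal control of early development were examined in mouse embryos at the 8-cell stage that had or lacked Nr5a2, the gene of an orphan nuclear receptor. The 10 genes were Khdc3, Ooep, Nlrp5, Padi6, Figla, Sohlh1, Dppa3, Gdf9, Uchl1 and Btg4. A region of the authors' deposited table belonged to a gene when that gene had the nearest protein-coding span among RefSeq genes (GRCm38.p6, which mm10 represents) and lay within 50 kb of the region's midpoint. This gave 12 of the 16958 regions, at 9 of the 10 genes. Dppa3 had 4 regions, the other 8 genes had 1 each, and Btg4 had none. The farthest region lay 34.9 kb from its gene, and no region with 1 of these genes as its nearest lay beyond 50 kb. The nearest region to Btg4 was 60.4 kb away and was assigned to Layn. The genes were chosen by the ratio of knockout over heterozygote accessibility in the maternal-zygotic series, where their loci lost more than in the inducible series. The values of the maternal-zygotic comparison, and its difference from the other, are therefore given as a description, with no test.

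ATAC-seq, which uses a transposase to cut and tag open DNA, gave the accessibility. The maternal-zygotic (mz) series held 13 knockout embryos (mz_NrKO) and 8 heterozygous embryos (mz_NrHet), each its own library, taken directly at the 8-cell stage. The labels give another date for the inducible series than for the mz series. The inducible series held 1 pool treated with 4-hydroxytamoxifen (iNrKO_plus_Tam_NrKO, called the treated pool) and 1 pool without it (iNrKO_minus_Tam_Nrpp, called the untreated pool). The pooled embryos, dissected as early 2-cell embryos (30 h from hCG), spent 45 h in culture, and 750 nM of the drug was present for 24 h at its start in the treated pool. The controls of the mz series were heterozygotes, and their maternal supply of Nr5a2 is not given in the labels. The number of embryos per pool and the driver of the recombinase are not given in the sources used here. None of the samples analysed here was treated without the inducible allele, so the drug and the deletion cannot be told apart.

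The table gives 1 merged RPKM value per group and region, and the variation from embryo to embryo is not visible in it. The values were turned back into whole reads, of which there were 109296 in mz knockouts, 99826 in heterozygotes, 190091 in the treated and 285671 in the untreated pool. A read was worth 0.359, 0.587, 0.170 and 0.163 RPKM in the same order, whatever the listed length of the region. Every 95% interval below is exact and, like the tests, covers counting error only. Duplicate reads would make it too narrow. The tests compare merged libraries, not the conditions.

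Oocyte genes of this kind are transcribed while the oocyte grows, and their products are stored in the egg. Maternal-effect genes are those whose product in the egg is needed by the embryo, and several of them encode proteins of the subcortical maternal complex, an assembly beneath the egg's surface that supports the first cleavages. NR5A2 binds DNA as a monomer at an extended nuclear receptor half-site, and in adult mice it is known for its roles in granulosa cells of the ovary and in the liver. ATAC-seq reads chromatin and not transcripts, so nothing below is a level of RNA.

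The Khdc3 region (chromosome 9, 73102066 to 73102360) was the only 1 of the 12 that overlapped a RefSeq promoter window listed for the 10 genes. Such a window runs from 250 bp before to 50 bp after a listed start. The region lay inside the RefSeq gene span, 332 to 38 bp upstream of the listed Khdc3 start, and 4.59 kb from Rab27a. The gene table holds no exons, so the region was not placed in an exon or intron of a longer transcript. The overlap is printed because it carries a match to a motif of the NR5A2 type and the region's change is described next. It is chr9:73102148-73102360 of GRCm38.p6, on the plus strand, which is the strand of the gene, and the capitals mark a match to TCAAGGCCA on the opposite strand.

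Khdc3: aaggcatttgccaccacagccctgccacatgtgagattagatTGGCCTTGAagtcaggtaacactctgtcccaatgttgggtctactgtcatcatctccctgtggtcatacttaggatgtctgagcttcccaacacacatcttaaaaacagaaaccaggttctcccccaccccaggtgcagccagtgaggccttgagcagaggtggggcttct

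The far end of the match lay 208 bp upstream of the listed start. The authors' CUT&RUN summit lay 228 bp upstream, and the position to which they recentred it on the motif lay 207 bp upstream, inside the match. The ATAC-seq summit lay 79 bp upstream, 128 bp from the recentred position. TCAAGGTCA, TCAAGGCCA and their shorter forms CAAGGTCA and CAAGGCCA, which lie within them, were searched on both strands. TCAAGGCCA was found in 0.591% and any of the 4 in 3.92% of the 32851 promoter windows of the same length. Of the 9 windows listed for 8 of the 10 genes, the Khdc3 window alone held a match. The other regions lie outside these windows or have none listed, so their letters were not read.

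**Figure D1:**
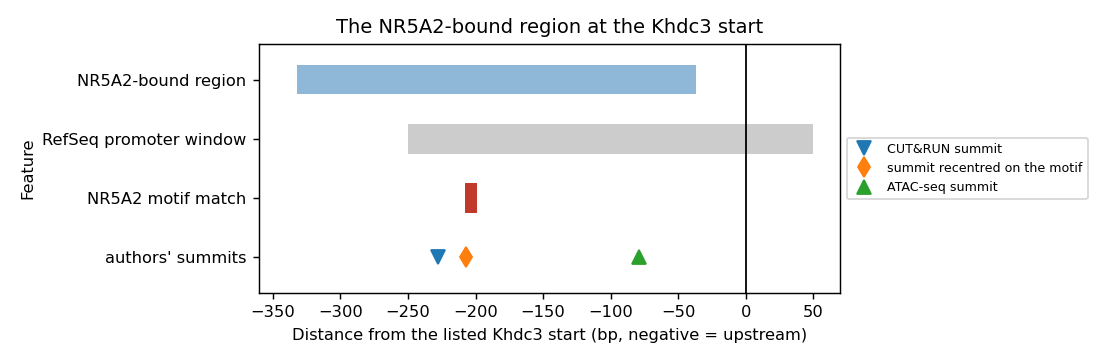
Features around the listed Khdc3 start, by distance from it in bp, with upstream to the left. The bars are the NR5A2-bound region, the RefSeq promoter window and the motif match, and the symbols are the authors' summits, of which the recentred one lies in the match, 207 bp upstream.

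Of the 4 genes of the subcortical maternal complex, Khdc3, which encodes a KH-domain protein of the complex, had the most accessible region in both control columns. It had 4.66 RPKM in mz knockouts and 16.4 RPKM in heterozygotes, from 13 and 28 reads, a ratio of 0.284 (95% interval 0.135 to 0.566). In the inducible series it had 2.72 RPKM in the treated and 5.88 RPKM in the untreated pool, a ratio of 0.464 (0.240 to 0.857) that did not pass the test over all regions (adjusted p = 0.108, exact binomial test with Benjamini-Hochberg adjustment). Knockout values were thus lower than their controls in both series.

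The Ooep region (chromosome 9, 78374909 to 78375134) lay 1.88 kb downstream of Ooep, which encodes another KH-domain protein of the complex, and 6.82 kb from Dppa5a. It had 6.10 RPKM in mz knockouts and 8.81 RPKM in heterozygotes, a ratio of 0.692 (0.325 to 1.49). The treated pool had 2.72 RPKM and the untreated pool 4.57 RPKM, a ratio of 0.597 (0.301 to 1.14). Here the ratio was no lower in the mz series than in the inducible series, and both intervals hold 1.

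The Nlrp5 region (chromosome 7, 23470415 to 23470658) lay 28.6 kb downstream of Nlrp5, which encodes the NLR-family protein MATER. It had 1.43 RPKM in mz knockouts and 6.46 RPKM in heterozygotes, from 4 and 11 reads, a ratio of 0.223 (0.0516 to 0.749). The treated pool had 1.70 RPKM and the untreated pool 3.10 RPKM, a ratio of 0.550 (0.228 to 1.24). The Padi6 region (chromosome 4, 140733919 to 140734115) lay inside Padi6, a peptidylarginine deiminase gene of the egg, 8626 bp downstream of the listed start. It rested on 4 reads in mz knockouts and 3 reads in heterozygotes, with 1.43 and 1.76 RPKM, and on 1.36 RPKM in the treated and 2.29 RPKM in the untreated pool. At this depth no difference was detectable at Padi6. Together the 4 regions had a ratio of summed RPKM of 0.407 (0.263 to 0.624) for the mz pair and 0.537 (0.374 to 0.764) for the inducible pair. None of the 4 passed the inducible test, against 6.37% of all regions called lower. Khdc3 alone had an unadjusted p under 0.05 (p = 0.0118, exact binomial test), against 19.7% of all regions lower at that limit. With the pair scaled to a median ratio of 1 over all regions, Khdc3 was no longer under that limit.

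The 2 oocyte transcription factor genes had mz ratios on opposite sides of 1. The Figla region (chromosome 6, 85995545 to 85996003) lay 20.7 kb upstream of Figla, whose basic helix-loop-helix factor is needed for the zona pellucida genes, and inside the long non-coding RNA gene Gm33319. It had 1.79 RPKM in mz knockouts and 11.2 RPKM in heterozygotes, from 5 and 19 reads. Its mz ratio of 0.161 (0.0469 to 0.445) was the lowest among the members with at least 10 reads in that pair. The treated pool had 2.21 RPKM and the untreated pool 4.73 RPKM, with a ratio of 0.468 (0.223 to 0.928). This did not pass the exact binomial test (adjusted p = 0.150).

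The Sohlh1 region (chromosome 2, 25835351 to 25835695) lay 7.47 kb downstream of Sohlh1, the gene of a helix-loop-helix factor of early oocytes and spermatogonia, and 9.98 kb from Lcn9. It went against the loss that the genes were chosen for, with 3.23 RPKM in mz knockouts and 2.35 RPKM in heterozygotes, from 9 and 4 reads, a ratio of 1.37 (0.383 to 6.10). In the inducible series it was lower, with 1.53 RPKM in the treated and 4.57 RPKM in the untreated pool, with a ratio of 0.337 (0.139 to 0.730). Its adjusted p was 0.0443 by the exact binomial test. This call was lost when the pair was scaled to a median ratio of 1 over all regions, which left a ratio of 0.489 (adjusted p = 0.436, exact binomial test).

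The Uchl1 region showed a low ratio in both series. Uchl1 encodes a ubiquitin hydrolase abundant in oocytes and neurons, and the region (chromosome 5, 66669530 to 66669961) lay 6.38 kb upstream of it, inside the long non-coding RNA gene Uchl1os. It had 1.08 RPKM in mz knockouts and 5.29 RPKM in heterozygotes, from 3 and 9 reads, a ratio of 0.205 (0.0354 to 0.815). It had 0.170 RPKM in the treated pool, which is 1 read, and 2.77 RPKM in the untreated pool, which is 17 reads. The inducible ratio of 0.0647 (0.00147 to 0.391) was the lowest of the 12 and passed the exact binomial test (adjusted p = 0.00819). After scaling to the median the ratio was 0.0940 and the adjusted p 0.116 by the exact binomial test.

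Dppa3, also called Stella, protects maternal DNA methylation in the zygote and sits in a cluster with the pluripotency-associated genes Gdf3 and Nanog. Its span is chromosome 6, 122626424 to 122630271, and its 4 regions are numbered here from low to high coordinates. Region 1 (122621163 to 122621528), 5.08 kb away, was the most accessible of the 12 in both control columns. It had 10.0 RPKM in mz knockouts and 22.9 RPKM in heterozygotes, a ratio of 0.439 (0.260 to 0.731), from 28 and 39 reads. In the treated pool it had 9.02 RPKM and in the untreated pool 9.79 RPKM, with a ratio of 0.921 (0.624 to 1.36) and an adjusted p of 0.937 (exact binomial test). The groups were thus far apart in the mz series and close in the pools at this region, where the interval still allows a loss.

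Region 2 (122622136 to 122622528), 4.09 kb away, is classed by the authors as not accessible. It had 5.74 RPKM in mz knockouts and 7.64 RPKM in heterozygotes, and 6.13 RPKM in the treated and 4.90 RPKM in the untreated pool. Region 3 (122643802 to 122644190), 13.7 kb away and 0.278 kb from the pseudogene Gm8460, had 2.51 RPKM in mz knockouts and 11.7 RPKM in heterozygotes, a ratio of 0.214 (0.0763 to 0.526). The treated pool had 2.55 RPKM and the untreated pool 4.41 RPKM there, a ratio of 0.580 (0.286 to 1.13). The authors also class region 4 (122665084 to 122665267), 34.9 kb away, as not accessible. It had 0 reads in mz knockouts and 2 reads in heterozygotes, both under the 3 reads that a count of 0 allows (1.08 and 1.76 RPKM), so no fold is given, and 5 reads in the treated and 2 reads in the untreated pool. Summed over the 4 regions, the ratio was 0.421 (0.289 to 0.609) for the mz pair and 0.955 (0.730 to 1.25) for the inducible pair. Regions 1 and 2 lie less than 1 kb apart. The width over which reads were counted is not given, so these regions may share reads in this sum.

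Gdf9 encodes a growth factor that the oocyte secretes to act on granulosa cells. Its region (chromosome 11, 53430885 to 53431220) began 111 bp inside the span and lay 0.222 kb from Uqcrq, a respiratory chain gene, so it cannot be assigned to Gdf9 alone. It had 11.1 RPKM in mz knockouts and 17.0 RPKM in heterozygotes, from 31 and 29 reads, a ratio of 0.653 (0.380 to 1.12). It had 9.02 RPKM in the treated and 7.18 RPKM in the untreated pool, with a ratio of 1.26 (0.826 to 1.92) and an adjusted p of 0.584 (exact binomial test). Gdf9 and Dppa3 region 1 were the most accessible members in mz knockouts and in the treated pool. They had 31 and 28 reads in mz knockouts and 53 reads each in the treated pool, too close to rank.

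**Figure D2:**
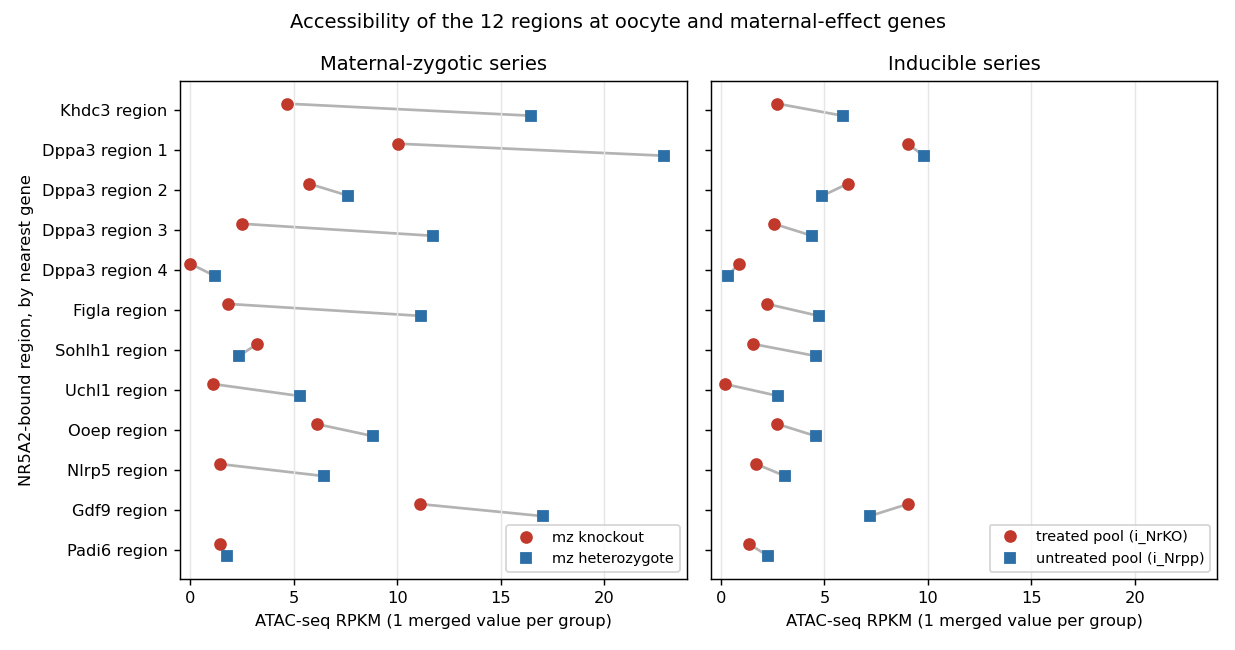
ATAC-seq RPKM of the 12 regions, 1 merged value per group, with knockouts as red circles above their controls as blue squares in each row. Heterozygotes reach 22.9 RPKM at Dppa3 region 1, while the untreated pool stays at or below 9.79 RPKM.

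Counted over the list, 8 of 12 regions had a deposited ratio under 0.667 in the mz series, against 49.2% of all regions. These include Dppa3 region 4, whose ratio rests on 0 and 2 reads, and 7 of the other 11 were under 0.667. Over 1.5 there was none, against 20.3%. The median mz ratio was 0.361, against 0.688 over all regions, and the ratio of summed RPKM was 0.436 (0.347 to 0.545), against 0.668. The choice of the genes used these values, and nothing is read from them. In the inducible series 8 of 12 regions were also under 0.667, against 48.6%, and 1, Dppa3 region 4, was over 1.5, against 8.57%. The median inducible ratio was 0.588, against 0.688 over all regions, and the ratio of summed RPKM was 0.734 (0.618 to 0.869), against 0.694. The exact binomial test called 2 regions lower, against 6.37% of all regions, and 0 higher, against 0.0767%. Both called regions were among the 10 accessible members, and of all 8228 accessible regions 852 were called lower. At an unadjusted p under 0.05 the test gave 4 of the 12 lower, against 19.7% of all regions, and 0 higher, against 0.879%. Of the 12 regions, 10 had at least 10 reads over the mz pair and 11 over the inducible pair. The authors, who average both ratios, class 6 of the 12 as losing accessibility, against 41.5% of all regions, and none as gaining it.

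**Figure D3:**
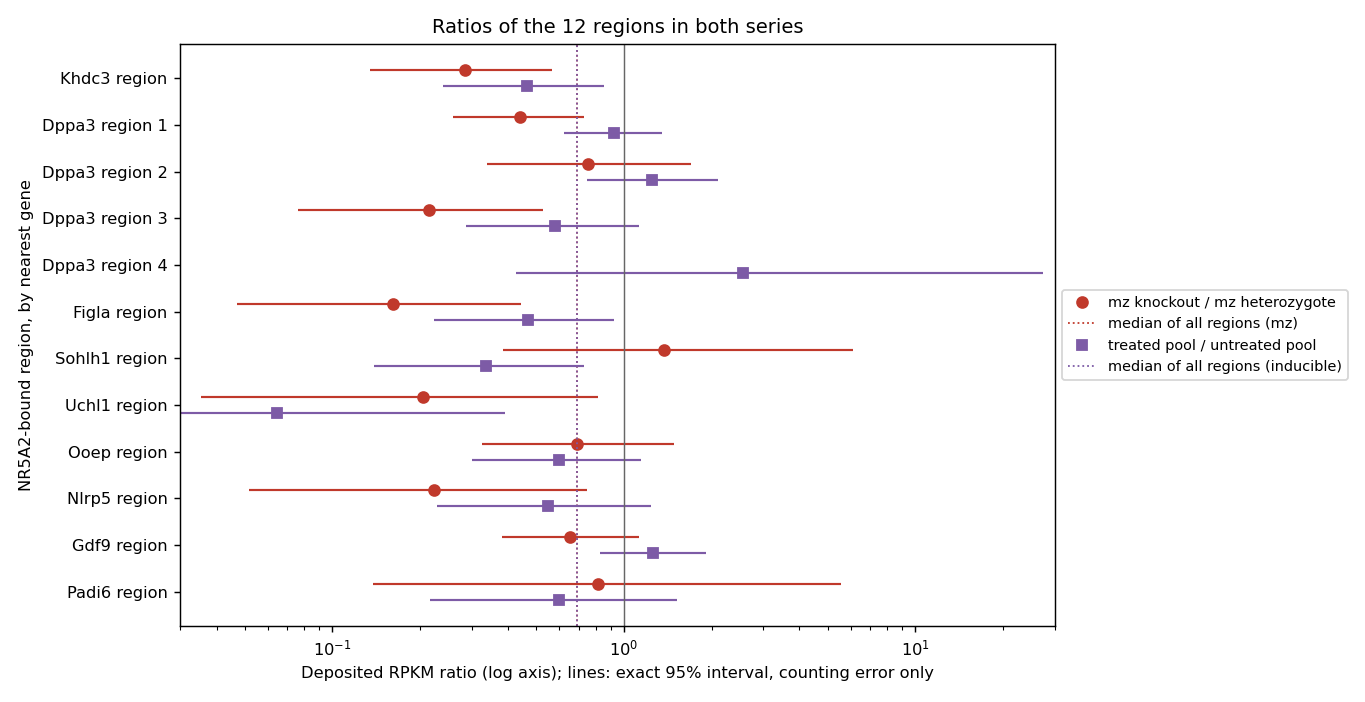
Deposited ratios (mz knockout over heterozygote, treated over untreated) of the 12 regions on a log axis, with exact 95% intervals for counting error. Dotted lines are the medians of all regions (0.688 in both series), the mz ratio of Dppa3 region 4 is left out because it rests on 0 and 2 reads, and the lower bound of the Uchl1 inducible interval (0.00147) lies off the axis.

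Set side by side, the mz ratio was below the inducible ratio at 8 of the 12 regions, against 48.7% of all regions, and at 7 of 11 without Dppa3 region 4. The 4 exceptions were Sohlh1, Uchl1, Ooep and Padi6. The genes were chosen for this difference, so it was not tested. The summed ratios came closer together without Dppa3. With its 4 regions left out the mz ratio was 0.445 (0.333 to 0.593) and the inducible ratio 0.611 (0.486 to 0.765), which was 0.734 with them. Among the 10 regions the authors class as accessible the ratios were 0.417 (0.328 to 0.529) and 0.670 (0.556 to 0.805), against 0.650 and 0.692 for all 8228 accessible regions. The inducible interval of the accessible members thus holds the value of all accessible regions.

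The columns of the 2 series were then compared with each other, a comparison chosen after the values were seen. The summed RPKM of the 12 regions was 112.8 in heterozygotes and 54.5 in the untreated pool, a ratio of 2.07 (1.72 to 2.48), against 1.26 over all regions and 1.39 over accessible regions. It was 49.1 in mz knockouts and 39.99 in the treated pool, a ratio of 1.23 (0.988 to 1.52), against 1.21 over all regions and 1.31 over accessible regions. Without Dppa3, which leaves 8 regions that are all accessible, this ratio was 1.44 (1.08 to 1.91). A heterozygote value over 1.5 times the untreated value was found at 10 of 12 members, against 30.4% of all regions. A mz knockout value over 1.5 times the treated value was found at 4 of 12, against 31.4%. The series also differ in culture, pooling and date, which cannot be told apart from these differences. The selection by a large mz loss favours high heterozygote values, so these ratios are a description and nothing is read from them.

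Outside the rule, the regions were described by NR5A2 binding in the CUT&RUN data that the authors took from an earlier study. The median CUT&RUN signal was 5.23 RPKM for the 12 regions, against 4.15 RPKM for all regions and 5.00 RPKM for accessible regions. The strongest signals were at Khdc3 with 11.3 RPKM (percentile 96.0 of all regions), Dppa3 region 1 with 9.30 RPKM (percentile 91.8) and Dppa3 region 3 with 7.95 RPKM (percentile 87.0). The weakest were at Dppa3 region 4 with 1.89 RPKM (percentile 9.92) and Padi6 with 2.47 RPKM (percentile 19.4). The 2 regions lower in the inducible test were not at the top, with 5.79 RPKM at Uchl1 and 3.83 RPKM at Sohlh1.

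The authors class 10 of the 12 as accessible, against 48.5% of all regions. The selection by a large mz loss favours high heterozygote values, so nothing is read from this share or from the heterozygote ranks. In heterozygotes and in the untreated pool Dppa3 region 4 was below the median of all regions. Padi6 was below it in heterozygotes and at it in the untreated pool, and the other 10 regions were at or above it in both. Sohlh1 stood at percentile 52.3 in heterozygotes and 84.6 in the untreated pool. Of the 12, 3 lay inside their gene's span, against 50.9% of all regions. None of the 4 Dppa3 regions did, and without them it was 3 of 8. The summit had been recentred on a motif at 11 of 12, against 89.3%, and Gdf9 was the 1 left in place. The ATAC-seq summit lay a median of 89.5 bp from the recentred position at the 10 accessible regions, against 108 bp over all accessible regions. At Padi6 it lay 1030 bp away, outside the listed region.

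**Figure D4:**
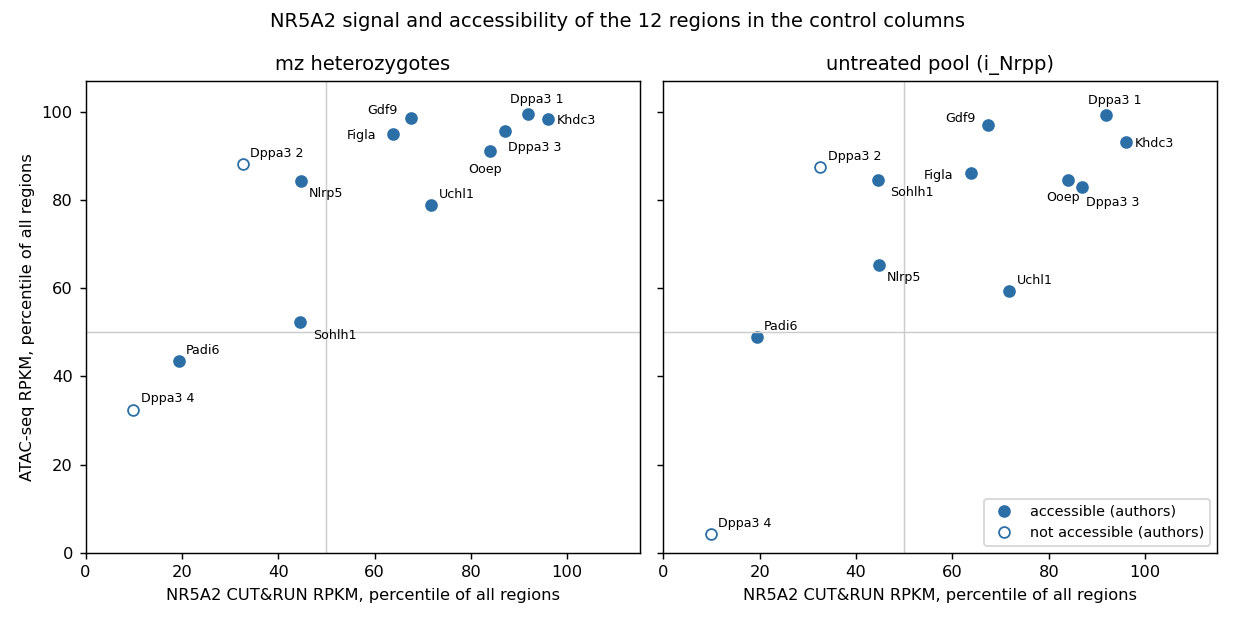
Percentile of each region among all regions for NR5A2 CUT&RUN signal (x axis) and for ATAC-seq RPKM (y axis) in the 2 control columns, with open circles for regions the authors class as not accessible. Khdc3 and Dppa3 region 1 stand high on both axes, and Dppa3 region 4 stands low on both.

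The table holds 16 further regions within 50 kb of these genes that are nearest to another gene. Their ratio of summed RPKM was 0.538 (0.404 to 0.714) for mz knockouts over heterozygotes and 0.711 (0.588 to 0.859) for the treated over the untreated pool. Of the 16, 10 were under 0.667 in the mz comparison, against 49.2% of all regions, and 5 were over 1.5, against 20.3%. In the inducible comparison 7 were under 0.667, against 48.6%, and 1 was over 1.5, against 8.57%. The exact binomial test called 2 lower, against 6.37% of all regions, and 0 higher, against 0.0767%. At an unadjusted p under 0.05 there were 5 lower, against 19.7%, and 0 higher, against 0.879%. The region inside Gdf3, a TGF-beta family ligand gene 17.9 kb from Dppa3, had 3.95 RPKM in mz knockouts and 8.81 RPKM in heterozygotes. It had 2.89 RPKM in the treated and 2.12 RPKM in the untreated pool, and did not pass the test (adjusted p = 0.778, exact binomial test). The 2 called regions lay inside Apobec1, an RNA-editing enzyme gene 48.0 kb from Dppa3, and inside Rcc2, 8.68 kb from Padi6. Apobec1 had 0.510 RPKM in the treated and 3.26 RPKM in the untreated pool (adjusted p = 0.0175, exact binomial test). Rcc2 had 0.681 RPKM in the treated and 3.75 RPKM in the untreated pool (adjusted p = 0.0135, exact binomial test). Both calls are against a ratio of 1, and whether they hold after scaling to the median is not given here. Over all regions that scaling lowered the share called lower from 6.37% to 0.442%. The 3 regions inside Rab27a, a vesicle-transport GTPase gene beside Khdc3, had mz ratios from 0.408 to 0.611, and their inducible ratios ran from 0.632 to 1.28. These neighbouring genes were picked after their values were seen.

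A wider list of 82 further oocyte and maternal-effect genes had 73 regions at 41 genes, of which 2, nearest to Dppa5a, are also among the 16 neighbours. Its ratio of summed RPKM was 0.605 (0.530 to 0.691) for the mz pair and 0.749 (0.687 to 0.816) for the inducible pair. In the mz series 43 of 73 were under 0.667, against 49.2% of all regions, and 12 over 1.5, against 20.3%. In the inducible series these were 28, against 48.6%, and 4, against 8.57%. The median ratios were 0.490 and 0.783. The exact binomial test called 1 of the 73 lower in the treated pool, against 6.37% of all regions, and 0 higher, against 0.0767%. At an unadjusted p under 0.05 it gave 10 lower, against 19.7%, and 0 higher, against 0.879%. The called region lay inside Pde3a, whose phosphodiesterase acts in the release of the oocyte from meiotic arrest. It had 1.53 RPKM in the treated and 6.69 RPKM in the untreated pool (adjusted p = 0.00107, exact binomial test). This call too is against a ratio of 1, and whether it holds after scaling to the median is not given here.

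Other members of the subcortical maternal complex and related genes had ratios of 0.601 over 11 regions in the mz series and 0.686 in the inducible series. The other oocyte transcription factor genes had 0.461 and 0.581 over 8 regions. Maternal chromatin factor genes had 0.431 (0.309 to 0.599) and 0.873 (0.720 to 1.06) over 19 regions. Of these, 14 were under 0.667 in the mz series, against 49.2% of all regions, and 4 in the inducible series, against 48.6%. Only 7 of the 19 had at least 10 reads over the mz pair, and the authors class 4 as accessible. Genes of the zona pellucida, egg surface and secreted factors had 0.581 and 0.754 over 10 regions, genes of maternal mRNA storage and decay 0.733 and 0.883 over 17, and oocyte ubiquitin, kinase and meiotic arrest genes 0.829 and 0.597 over 8. Single regions spread widely on few reads. Among those with at least 10 reads in the mz pair, a region 1.28 kb from Rfpl4, an egg ubiquitin ligase gene, and 1 near Sall4, a zinc-finger factor gene, shared the lowest ratio of 0.154 (0.0158 to 0.765). A region 0.403 kb from Ybx2, whose product binds stored mRNA, had the highest at 4.25 (0.982 to 38.7). In the inducible pair the lowest was inside Zp3, a zona pellucida gene, at 0.122 (0.00264 to 0.836) and the highest was the same Sall4 region at 2.58 (0.752 to 11.4). None of these passed the inducible test.

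Cumulus and granulosa cells surround the egg, and their genes served as the list of another cell type. Their 11 regions had ratios of 0.817 (0.606 to 1.11) for the mz pair and 0.877 (0.710 to 1.08) for the inducible pair. In each pair 3 regions were under 0.667, against 49.2% (mz) and 48.6% (inducible) of all regions. The exact binomial test called 0 of the 11, against 6.37% lower over all regions, and 0 had an unadjusted p under 0.05, against 19.7% lower. The 5 of them at Gja1, a gap junction gene that embryos also express, hold most of their reads.

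**Figure D5:**
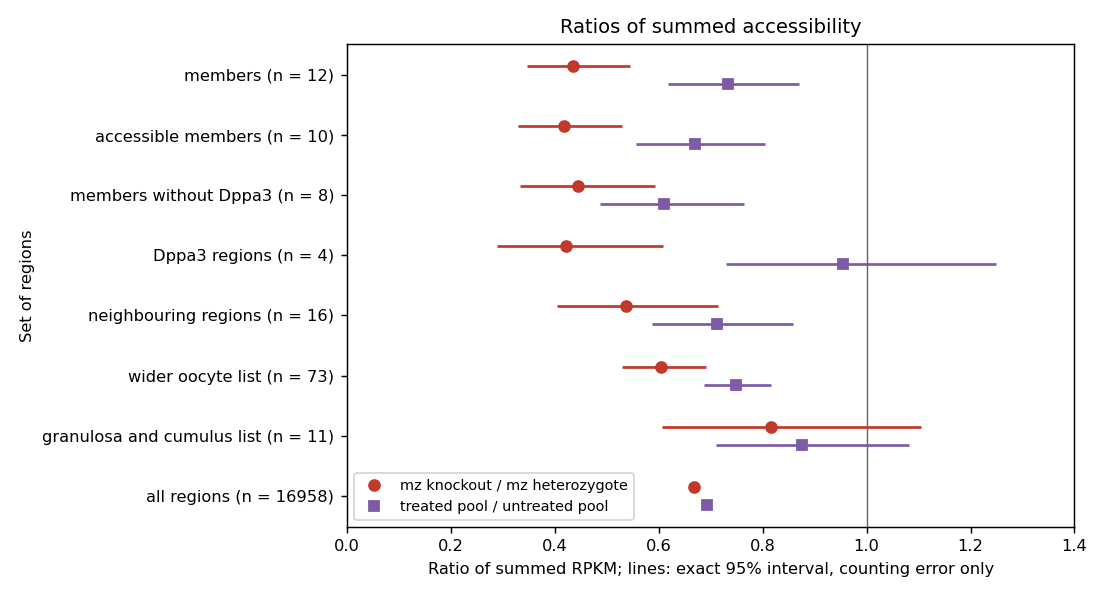
Ratio of summed RPKM, knockout over control, for the members, their subsets and other sets of regions, with exact 95% intervals for counting error. The Dppa3 regions stand at 0.421 for the mz pair and at 0.955 for the inducible pair, and over all 16958 regions the ratios are 0.668 and 0.694.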

How the data were processed

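The labels describe 23 ATAC-seq libraries. The submitters' processing notes name cutadapt, Bowtie2, MACS2 and mm10, without versions or settings. Insertion shifting, duplicate removal and the merging of libraries are not given in the sources used here. The deposited table holds ATAC-seq and CUT&RUN values in RPKM, per the file headers, and the authors' deposited ratio for each series, which equalled (knockout + 0.01)/(control + 0.01) RPKM within 5e-08. The treated pool is its numerator, whatever the order in the column's name. Every deposited RPKM value was a whole multiple of 1 step per column, within 0.0001 of a step for 100% of values, so whole reads were recovered. Reads per region had a median of 4 in mz knockouts, 4 in heterozygotes, 9 in the treated and 14 in the untreated pool.

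For the inducible pair, an exact binomial test (two-sided) was run on each region's reads, its null share set by the ratio of the steps. Adjusted p-values are Benjamini-Hochberg values over the whole table, called at 0.05. The test was checked on simulated counts with no overall difference between the 2 columns. That check does not cover the summed ratio of 0.694 over all regions of the inducible pair. Ratios of sums have exact (Clopper-Pearson) intervals. Median log2 ratios used log2(RPKM + 1). All 10 genes are named, and all 12 regions are given. Of the wider list, genes with a called region or an extreme ratio on at least 10 reads are named. Members and lists were chosen with earlier results of these data known. Symbols, spans and promoters come from RefSeq (GRCm38.p6). Python 3.11.15, scipy 1.17.1 and pandas 2.3.3 were used.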

Additional observations from a re-analysis of the deposited data

Results flagged for a closer look

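At 4 of the 12 regions the ratios of the 2 series lay on opposite sides of 1, and that contrast between the series was not tested. At Sohlh1 the mz ratio was 1.37 and the inducible ratio 0.337. At Gdf9 the mz ratio was 0.653 and the inducible ratio 1.26. At Dppa3 region 2 the mz ratio was 0.752 and the inducible ratio 1.25. At Dppa3 region 4 the inducible ratio was 2.56 on 5 and 2 reads, and the mz pair held 0 and 2 reads.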

How the results depend on the processing

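No paired analysis was possible because the columns hold merged groups. Knockout and heterozygous embryos are separate embryos that share only a running number in their titles. The merged columns also left no library to leave out in turn. Scaled to a median ratio of 1 over all regions, the mz ratio of summed RPKM was 0.634 and the inducible ratio turned to 1.07. Scaled to a summed ratio of 1, they were 0.652 and 1.06. Under both scalings 7 of 12 members were under 0.667 in the mz pair, against 29.2% of all regions (median) and 29.0% (sum), and 2 of 12 in the inducible pair, against 27.0% and 27.1%. The exact binomial test then called 0 of 12 lower, against 0.442% and 0.460%. At an unadjusted p under 0.05 it gave 1 lower, against 6.51% and 6.77%, and 2 higher, against 5.89% and 5.68%. The heterozygote over untreated ratio became 1.65 when scaled to a summed ratio of 1. Within 10 kb, 4 of 8 regions were under 0.667 in the mz and 5 of 8 in the inducible series, against 49.2% and 48.6% of all regions. With every region within 50 kb of the genes, whatever its nearest gene, these were 18 and 15 of 28, against the same shares. Of those 28, 4 were called lower, against 6.37% of all regions. With 1 gene left out at a time, the mz ratio ranged from 0.397 to 0.466 and the inducible ratio from 0.611, without Dppa3, to 0.770. The counts under 0.667 ranged from 5 to 8 and from 7 to 8, the calls from 1 to 2, the heterozygote over untreated ratio from 1.98 to 2.21 and the mz knockout over treated ratio from 1.15 to 1.44. Distances from region edges, no distance limit, accessible regions, a minimum of 10 reads, other pseudocounts and 1 region per 1 kb changed no direction of a summed or median ratio. Depth limits single regions, with a median of 4 reads per region in mz knockouts and in heterozygotes.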
